A study of Homo sapiens with 10 samples.

Results

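NXPH4, ENO2, SYP and NCAM2 are genes used as markers of neurons or of neuroendocrine tumour cells, and REST encodes a repressor of neuronal genes. They were 5 of the 57353 gene symbols counted and 5 of the 17230 genes with enough counts to be tested. The first 4 were chosen by the study from these same samples, on the difference between cells that over-express CPT1A and cells in which it was knocked down. REST was added because of its role, with earlier results of these data known. Their own differences between lines are therefore given here as a description, without p-values.

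The cells were LNCaP-C4-2, a human castration-resistant prostate cancer line derived from LNCaP, and the question was how the amount of CPT1A, the enzyme that commits long-chain fatty acids to mitochondrial oxidation, changes gene expression. RNA from bulk cultures was sequenced in 10 samples of 4 lentiviral lines, all grown in RPMI with fetal bovine serum. The knockdown arm held 2 samples with a scrambled, non-targeting shRNA (NT) and 3 with an shRNA against CPT1A (KD), all selected with puromycin. The over-expression arm held 2 samples with an empty vector (EV) and 3 with a CPT1A cDNA (OE), all selected with blasticidin. Each arm thus had its own control, and a single transduced line stood for each condition. The labels do not say whether replicates of a line came from separate cultures, so every p-value below measures only the spread between these samples, which may be technical.

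The libraries held 23555205 to 28615770 counts each, and 3 counts correspond to 0.0995 to 0.136 CPM (counts scaled to a fixed library size, with TMM factors between libraries). CPT1A itself was at 262 and 265 CPM in NT, 81.2 to 86.4 in KD, 318 and 326 in EV and 861 to 914 in OE, so each line matched its label. The KD library of replicate 2 stood further from its group than any other library did from its own. Values without that library are given where they move a statement. All 10 luminal prostate markers were well counted in every sample, with KLK3 at 62414 to 148127 counts. Of the markers of other cell types, KRT5, PECAM1 and COL1A2 were at 0 in every library and PTPRC was at 1 count at most, whereas COL1A1 (fibroblast, 217 to 440 counts), VWF (endothelium, 159 to 226) and ITGB4 (basal epithelium, 130 to 321) were counted in every library. Of 8 neuron and glia markers, SLC17A6 and GAD2 were at 0 in every library and RBFOX3 reached 5 counts, while MBP, at 1995 to 2603 counts, was the only one over 10 counts throughout. Their summed level was 83.2 to 84.9 CPM in NT, 74.5 to 83.4 in KD, 85.5 to 88.4 in EV and 98.1 to 102 in OE. This sum was nearly all MBP, at 73.6 to 101 CPM across libraries, while OLIG2, the next highest marker, reached 0.649 CPM. The sum was highest in OE, and the part of this in the results below was not tested.

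Outside the nervous system, REST binds a DNA element called RE1, near many neuronal genes, and recruits CoREST, SIN3 and histone deacetylases that keep them silent. Prostate adenocarcinoma can lose its luminal character under androgen deprivation and take on neuroendocrine features, in which neuronal genes such as ENO2, SYP, CHGA and NCAM1 are expressed. NXPH4 is a secreted neurexophilin of the family that binds neurexins, ENO2 is the neuronal isozyme of the glycolytic enzyme enolase, SYP (synaptophysin) is a membrane protein of synaptic vesicles, and NCAM2 is a cell adhesion molecule of neurons.

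Because REST acts through RE1, the closest match to that element was read from GRCh38 within 5 kb on either side of each gene's start. The element was spelled TTCAGCACC, then 2 free bases, then GGACAGCGC, which gives 18 compared positions, and both strands were searched. Below, each site is written 5′ to 3′ on the strand that matched, with letters equal to the element in capitals. They are shown to let the 5 genes be compared at the sequence level. Where matches tied, the plus strand and then the lowest coordinate was taken. Ties were not counted, so other matches as close may exist in a window.
NXPH4: TcCAGCgCtcaaGgCAGCGC
ENO2: TTCtGCACCccacACtGCcC
SYP: TcCAGCACCgtGGACAGaGC
NCAM2: TTCAGCttgagtGACAGaGC
REST: gTCAGCcCCggGGcCcGgGC
SYP held the closest match, with 2 mismatches, at chrX:49200123-49200142 on the minus strand, 85 bases downstream of the annotated start and within an intron. Of the 19974 windows around starts of protein-coding genes, 176 (0.881%) held a match as close. The other 4 genes had no match closer than 5 mismatches, a distance that 11583 windows (58.0%) reached or bettered. Those matches lay at chr12:57220196-57220215 (minus strand, in an intron of NXPH4), chr12:6914040-6914059 (minus strand, in an intron of ENO2), chr21:20995654-20995673 (minus strand, upstream of NCAM2) and chr4:56908702-56908721 (plus strand, in an intron of REST). A match in letters is a description of this window only, and binding was not measured.

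NXPH4 was 10.4-fold higher in OE than in its control EV and differed little between the other 3 lines. The gene lies on chromosome 12 (57216794 to 57226449, plus strand). Its level was 69.2 and 68.7 CPM in the 2 NT samples, 77.2, 82.6 and 74.5 in the 3 KD samples, 78.2 and 81.8 in EV and 818, 859 and 830 in OE. Every OE sample stood far above the 7 others, which lay close together. The group means were 69.0 ± 0.291 CPM (SD, n = 2) in NT, 78.1 ± 4.14 (n = 3) in KD, 80.0 ± 2.54 (n = 2) in EV and 835 ± 20.9 (n = 3) in OE. Relative to EV, OE was higher by 3.38 ± 0.06 (SE) on the log2 scale. In KD versus NT it was 0.18 ± 0.05, with all KD samples above both NT samples, so NXPH4 was not lower where CPT1A was lower. The 2 control lines differed by about as much, at 0.21 ± 0.06 in EV versus NT. Among the 9478 genes with a mean of at least 10 CPM in EV, no other gene had a higher log2 fold change in OE versus EV than NXPH4, which ranked 10 among all 17230 tested genes.

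ENO2 differed in both arms and in opposite directions, higher in OE than in EV and lower in KD than in NT. It also lies on chromosome 12 (6913745 to 6923698, plus strand). Its level was 26.1 and 24.9 CPM in NT, 13.3, 17.2 and 13.8 in KD, 17.8 and 20.2 in EV and 42.0, 37.8 and 44.3 in OE. The groups of each arm did not overlap, and both controls lay between the KD and OE samples. On the log2 scale OE stood 1.12 ± 0.09 above EV (2.18-fold), rank 315 of the 17230 genes and 37 of the 9478, and the difference of KD from NT was -0.79 ± 0.10, a level 1.73-fold lower. Without the KD library of replicate 2 the latter was -0.91. The NT samples were higher than the EV samples (EV versus NT, -0.43 ± 0.10), so the distance from OE to a control depended on which control was taken.

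SYP was low in every line and somewhat higher in OE. It lies on chromosome X (49187815 to 49200218, minus strand). Its counts were 45 and 62 in NT, 52, 58 and 64 in KD, 66 and 52 in EV and 82, 88 and 83 in OE. On the CPM scale it was at 1.70 and 2.46 in NT, 1.99, 2.29 and 2.12 in KD, 2.57 and 2.11 in EV and 3.27, 3.98 and 3.21 in OE. The OE samples were the 3 highest, and the other 7 samples overlapped. OE differed from EV by 0.57 ± 0.19 on the log2 scale, KD from NT by 0.04 ± 0.20 and EV from NT by 0.18 ± 0.22. The KD versus NT value turned to -0.21 without replicate 1 of NT and rose to 0.33 without replicate 2 of NT, so no direction can be given for the knockdown arm at this depth.

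NCAM2 was high in NT and at a like level in the other 3 lines. It lies on chromosome 21 (20998409 to 21543329, plus strand). Its level was 405 and 428 CPM in NT, 293, 303 and 325 in KD, 306 and 316 in EV and 307, 296 and 330 in OE. Both NT samples stood above the other 8, which overlapped. On the log2 scale KD differed from NT by -0.44 ± 0.05 and EV from NT by -0.42 ± 0.06. OE differed from EV by 0.00 ± 0.05 with TMM scaling and by -0.10 when only library size was used for scaling. The direct difference of OE from KD was 0.02 ± 0.05. The difference between the 2 arms (OE versus EV, minus KD versus NT) was 0.44 ± 0.07, and it thus came from the height of the NT control rather than from a higher level in OE.

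REST, the repressor, was highest in NT and lowest in OE, with small differences throughout. It lies on chromosome 4 (56907876 to 56966808, plus strand). Its level was 61.6 and 60.9 CPM in NT, 56.3, 42.2 and 52.0 in KD, 47.7 and 51.4 in EV and 41.6, 40.9 and 45.9 in OE. The 3 OE samples lay below both EV samples and the 3 KD samples below both NT samples, while OE and KD overlapped. On the log2 scale OE differed from EV by -0.21 ± 0.08, KD from NT by -0.29 ± 0.08 and EV from NT by -0.31 ± 0.09. The lowest KD value belongs to replicate 2, and without it the knockdown difference was -0.18. REST was thus lower on both sides of CPT1A change, and by as much between the 2 controls as within either arm. In bulk RNA, fewer cells expressing a gene and less RNA per cell cannot be told apart, and that holds for each of these levels.

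**Figure D1:**
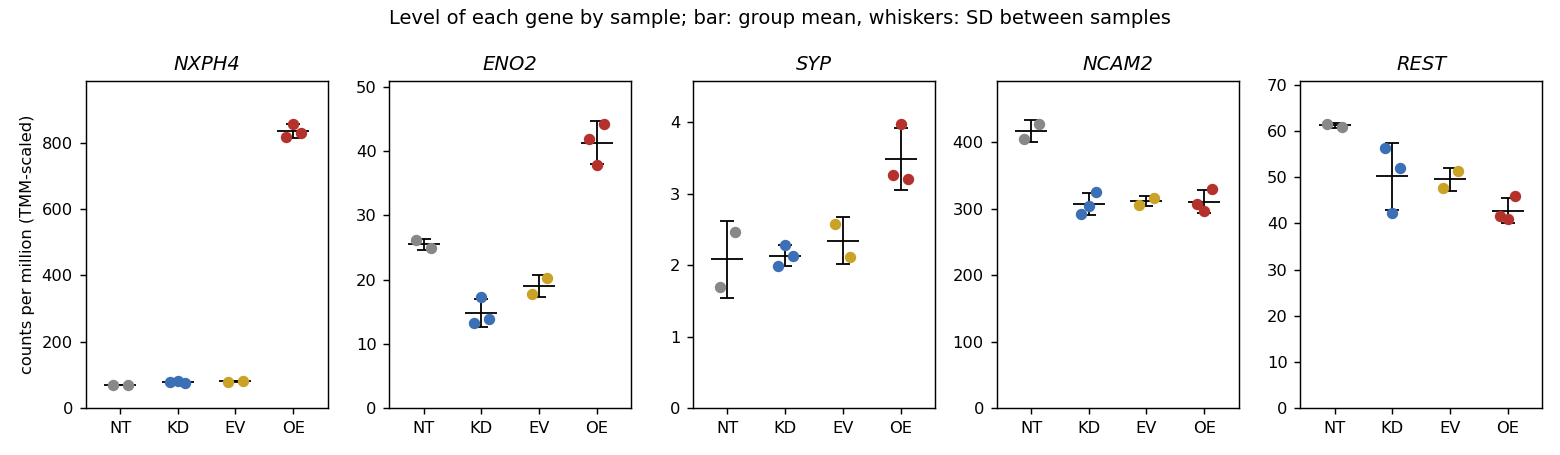
Level of NXPH4, ENO2, SYP, NCAM2 and REST in CPM (vertical axis, from 0, own scale per gene) in each sample of NT, KD, EV and OE; points are samples, the bar is the group mean and whiskers are the SD. NXPH4 stands at 818 to 859 in OE against 68.7 to 82.6 elsewhere, while NCAM2 is high in NT alone.

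Below, called means that the adjusted p of a gene fell under 0.0001 (edgeR quasi-likelihood test, Benjamini-Hochberg over 17230 genes), a limit that the study used for its comparison of OE with KD. In OE versus EV, NXPH4 and ENO2 were called higher and 0 of the 5 lower, against 11.6% of all genes called higher and 10.3% lower. In KD versus NT, ENO2 and NCAM2 were called lower and 0 of the 5 higher, against 12.8% and 16.4% of all genes. In EV versus NT, NCAM2 alone was called, as lower, where 2.91% of all genes were lower and 5.25% higher. For the difference between the arms, NXPH4, ENO2 and NCAM2 were called higher, against 6.94% of all genes called higher and 8.98% lower. Samples did not overlap in 4 of the 5 genes in OE versus EV and in 4 in KD versus NT, shares that 68.9% and 70.6% of all genes also reached. Since the genes were chosen on these contrasts, nothing is read from their counts.

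The study compared OE with KD after relating each line to its own control, and OE can also be set against KD without the controls. In OE versus KD without them the log2 fold change was 3.42 ± 0.05 for NXPH4, 1.49 ± 0.08 for ENO2, 0.70 ± 0.17 for SYP, 0.02 ± 0.05 for NCAM2 and -0.23 ± 0.07 for REST. After subtraction of each arm's own control the values were 3.21 ± 0.07, 1.91 ± 0.13, 0.52 ± 0.28, 0.44 ± 0.07 and 0.08 ± 0.12 in the same order. The subtraction moves each value by the gene's difference between the 2 controls. That difference was small beside the value for NXPH4, while for NCAM2 and REST it was larger than the direct contrast of OE with KD.

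**Figure D2:**
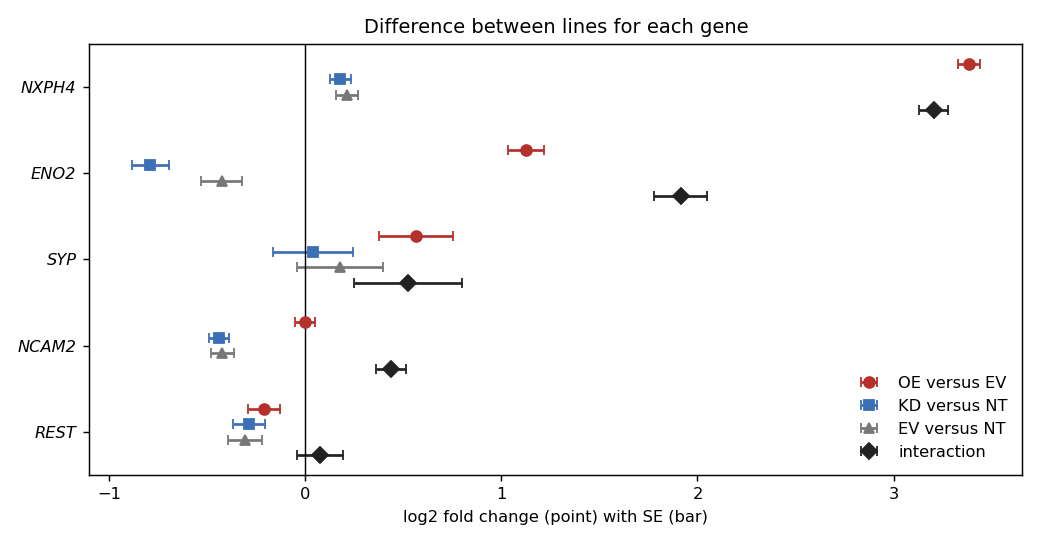
Log2 fold change (horizontal axis) with its SE for each gene in OE versus EV, KD versus NT, EV versus NT and the interaction (the OE versus EV value less the KD versus NT value). NXPH4 and ENO2 are the genes far above 0 in OE versus EV, at 3.38 and 1.12, and NCAM2 lies at 0.00 there.

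Levels of different genes were compared per length, as TPM (CPM-like shares after division by gene length) over the union of each gene's exons. On this scale NXPH4 went from 201 ± 8.18 TPM (n = 2) in EV to 1904 ± 18.9 (n = 3) in OE. ENO1, the enolase of most tissues and one of the most abundant transcripts of a glycolytic cell, was at 1783 ± 17.7 TPM in OE. With the length of the longest transcript in place of the exon union the order turned, with NXPH4 at 1396 and ENO1 at 2496 TPM, so the 2 can only be said to be of like order. In the same OE samples NCAM2 was at 184 ± 12.8 TPM, ENO2 at 47.4 ± 4.56, REST at 22.3 ± 1.69 and SYP at 2.45 ± 0.255, an order without overlap between neighbours. In the other lines the order began with NCAM2 (202 to 270 TPM as group means) and NXPH4 (172 to 201), whose samples overlapped in KD and EV but not in NT. REST (28.4 to 34.9), ENO2 (18.8 to 31.9) and SYP (1.60 to 1.81) followed without overlap within any of these lines. With the longest transcript the means of REST and ENO2 were 30.0 and 32.6 TPM in NT and 24.7 for both in EV, and NXPH4 passed NCAM2 in KD (145 against 143) and EV (146 against 142), so the order of these neighbours depended on the length used. For NCAM2 the TPM of all 3 OE samples (172 to 197) lay just below both EV samples (198 and 207), unlike its CPM. Within a gene the length is the same in every sample, so here the scales differ only in their scaling. TPM was taken over 36056 matched symbols, without mitochondrial genes and without TMM factors.

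Most close relatives of the 5 genes were not expressed. Of the other neurexophilins, NXPH1 and NXPH2 were at 0 in all 10 samples and NXPH3 reached 6 counts. NCAM1, the neuroendocrine marker related to NCAM2, reached 5 counts. Of the synaptophysin family, SYNPR was at 0, SYPL2 reached 8 counts, and SYPL1, a broadly expressed member, was at 125 ± 6.06 TPM in OE and 159 ± 0.390 in EV (log2 fold change -0.21, adjusted p = 0.00165, edgeR, past 0.05 but not called). ENO1 rose in OE versus EV (log2 fold change 0.56 ± 0.05, edgeR adjusted p = 1.12e-09) and differed by 0.16 ± 0.05 in KD versus NT (adjusted p = 0.00553, not called). ENO3, the muscle isozyme, differed by 0.08 ± 0.08 in OE versus EV (edgeR adjusted p = 0.451).

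ENO2 thus formed a small and changing share of enolase transcripts. By TPM it was 2.43% and 2.29% of the enolases in NT, 1.13%, 1.40% and 1.20% in KD, 1.58% and 1.89% in EV and 2.59%, 2.31% and 2.76% in OE. The share was higher in OE than in EV and lower in KD than in NT in every sample. The OE and NT samples overlapped.

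Genes that share a locus with the 5 were read for reads that could be assigned to either, since the strand setting of the counting was not given in the sources used here. LRRC23 overlaps ENO2 on the same strand and held 182 to 303 counts, with a log2 fold change of 0.31 in OE versus EV (edgeR adjusted p = 0.0312, not called). SYP-AS1, on the strand opposite to SYP, held at most 1 count. NOA1, on the strand opposite to REST, held 2055 to 2616 counts and fell in KD versus NT (log2 fold change -0.30, edgeR adjusted p = 1.45e-05), while it differed by 0.15 in OE versus EV (adjusted p = 0.0145). The values of ENO2 and REST are uncertain to the extent that such reads were shared.

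The genes just downstream of NXPH4 also rose in OE. Neighbours, here and below, are tested genes whose symbol matched 1 gene of GENCODE v44 (13992 of 17230). The remaining tested genes could not be placed. SHMT2, which encodes the mitochondrial serine hydroxymethyltransferase, starts 12779 bases downstream of the NXPH4 start, rose in OE versus EV by 1.22 on the log2 scale (edgeR adjusted p = 5.56e-15) and had a fall in KD versus NT (-0.58, adjusted p = 4.94e-10). NDUFA4L2, a hypoxia-induced mitochondrial protein related to a subunit of the respiratory chain, starts 23921 bases downstream. It rose by 2.95 in OE versus EV (edgeR adjusted p = 1.61e-18) and also fell in the knockdown arm (-1.18, adjusted p = 1.61e-09), and it was chosen after its values were seen. On the other side the nearest tested gene that does not overlap, LRP1, differed by 0.05 in OE versus EV (edgeR adjusted p = 0.569) and fell in KD versus NT by 0.51 (adjusted p = 1.81e-06). Of 28 tested genes placed within 500 kb of the NXPH4 start, SHMT2 and NDUFA4L2 were the only ones called higher in OE. KIF5A, a neuronal kinesin, was the only one called lower (log2 fold change -2.04, edgeR adjusted p = 7.97e-06). Its level was low, at a mean log2 CPM of -0.02, and it too was chosen after its values were seen. In the knockdown arm 3 of the 28 were called higher and 10 lower, against 16.4% and 12.8% of all genes. In OE versus EV the shares of all genes were 11.6% called higher and 10.3% lower. NXPH4 thus shared the direction of its 2 downstream neighbours in the over-expression arm but not in the knockdown arm, where they fell and it did not.

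**Figure D3:**
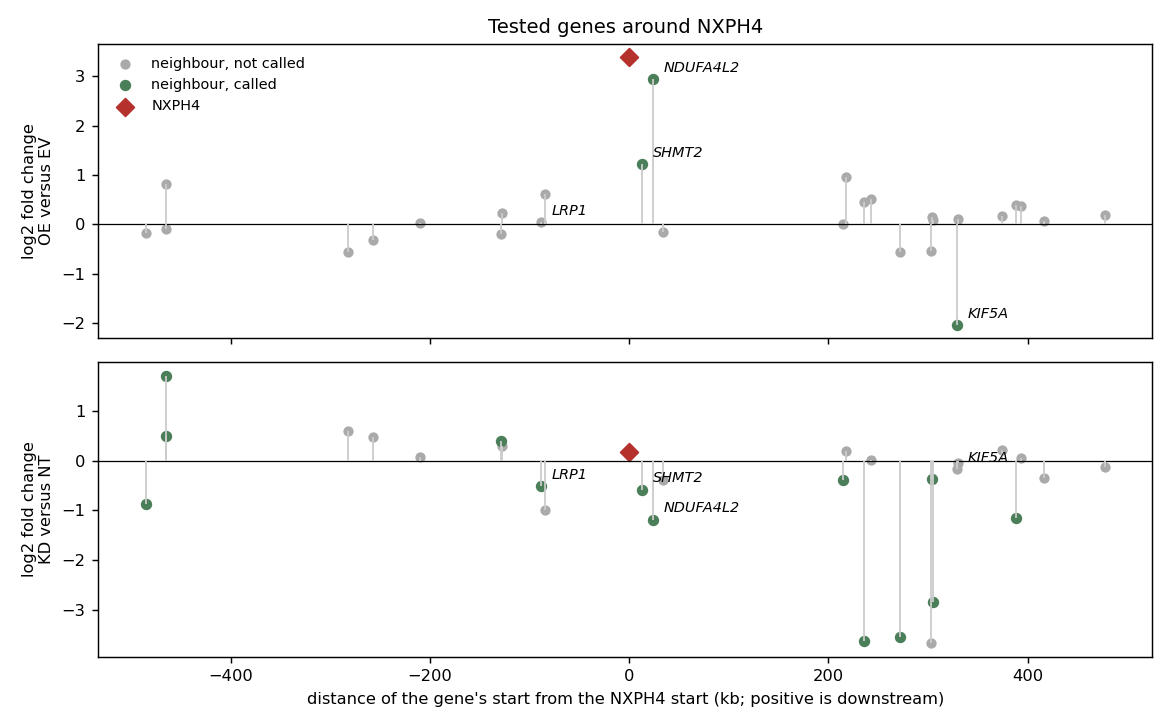
Log2 fold change of the 28 tested genes placed within 500 kb of NXPH4 (points with stems) and of NXPH4 itself (diamond), in OE versus EV above and KD versus NT below, against distance from the NXPH4 start in kb. SHMT2 and NDUFA4L2 lie at 1.22 and 2.95 in the upper panel and at -0.58 and -1.18 in the lower one.

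Of all genes, 11.6% were called higher in OE versus EV and 10.3% lower. Around ENO2, 12 of 37 tested genes placed within 500 kb were called higher in that contrast and 0 lower. Their median log2 fold change was 0.29 against -0.02 over all genes. The nearest tested neighbours of ENO2 were ATN1, which encodes atrophin and rose by 0.48 (edgeR adjusted p = 3.66e-09), and SPSB2, which differed by 0.46 (adjusted p = 0.00228, not called). Around SYP, 6 of 25 were called higher and 0 lower, also with a median of 0.29. The neighbours of SYP on either side both rose, CCDC22 by 0.42 (edgeR adjusted p = 2.95e-05) and PRICKLE3 by 0.44 (adjusted p = 1.62e-05). Whether these neighbourhoods differ from others was not tested. NCAM2 had no tested gene placed within 500 kb. The nearest placed were the pseudogene PPIAP22 (log2 fold change 0.02, edgeR adjusted p = 0.855) and LINC01687 (-1.02, adjusted p = 0.0855), both over 1 Mb away. Around REST, 0 of 6 were called in OE versus EV, and its nearest neighbours POLR2B and HOPX differed by -0.17 and -0.54 (edgeR adjusted p = 0.00326 and 0.452).

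The wider neuronal and neuroendocrine programme was then read in 8 lists of 149 genes, of which 88 had enough counts to be tested. In OE versus EV, 12 were called higher and 11 lower, with a median log2 fold change of -0.03 against -0.02 over all genes. The knockdown arm had 17 called higher and 15 lower, with medians of -0.04 and -0.02. Between the controls 7 were called higher in EV and 5 lower. The list genes thus moved in both directions, as did all genes by the percentages given above.

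Many defining neuroendocrine genes were not expressed in any line. Of 32 neuroendocrine tumour markers, 16 had at most 3 counts in every library. CHGB and the transcription factor NEUROD1 were at 0 in all 10 samples, CHGA, INSM1 and SYT1 reached 1 count, SRRM4, the splicing factor that disables REST in neurons, reached 2 counts, and SNAP25 and SOX2 reached 3 counts. Of 12 neuroendocrine transcription and splicing factors only SOX11, ONECUT2 and LHX2 were tested, and 0 of the 3 were called in OE versus EV, KD versus NT or EV versus NT. Of all genes, 11.6%, 16.4% and 5.25% were called higher in these contrasts and 10.3%, 12.8% and 2.91% lower. SOX11 was at 5.80 ± 0.288 CPM in EV and 4.13 ± 0.251 in OE (log2 fold change -0.49, edgeR adjusted p = 0.00488), ONECUT2 differed by -0.31 (adjusted p = 0.00418) and LHX2 by 0.28 (adjusted p = 0.145).

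**Figure D4:**
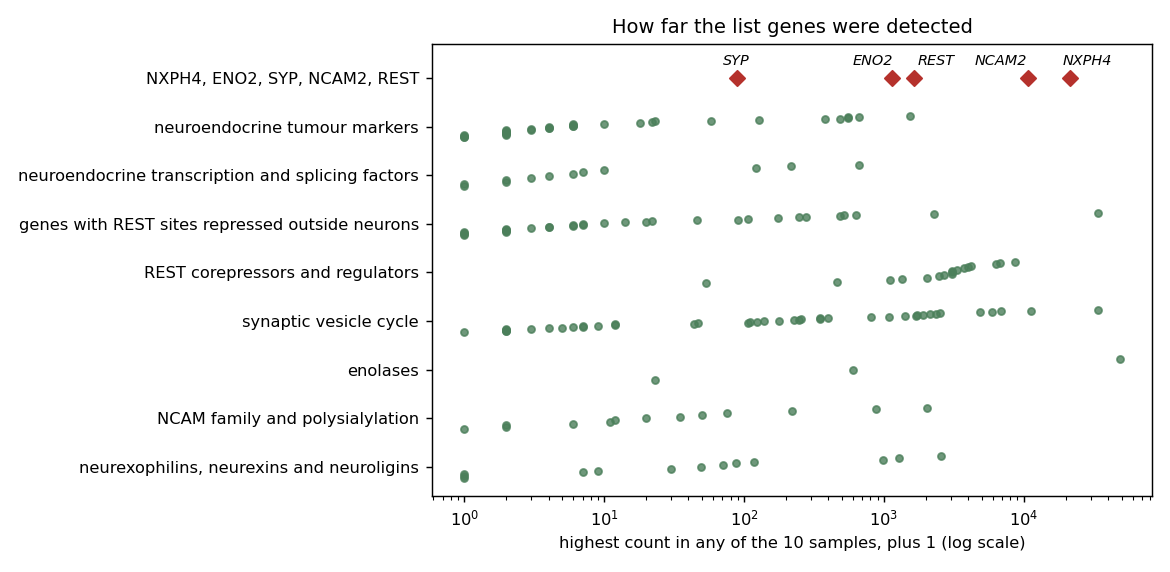
Highest count in any of the 10 samples, plus 1 (horizontal log axis), for each gene of the 8 lists (circles, 1 row per list) and for NXPH4, ENO2, SYP, NCAM2 and REST (diamonds). Of the 149 list genes 40 had at most 3 counts in every sample, while all 17 REST corepressors and regulators had 10 or more in at least 1 sample.

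Of the 11 tumour markers tested, 3 rose and 1 fell in OE versus EV, against 11.6% and 10.3% of all genes. CALCA, which encodes calcitonin and the neuropeptide CGRP, moved in the directions of ENO2. Its counts were 59 and 57 in NT, 5 in each KD sample, 38 and 33 in EV and 127, 87 and 82 in OE. It rose in OE versus EV (log2 fold change 1.52, edgeR adjusted p = 2.44e-06) and fell in KD versus NT (-3.58, adjusted p = 2.08e-09). DLL3, a Notch ligand of neuroendocrine tumours, rose by 0.55 in OE versus EV (edgeR adjusted p = 1.39e-05), and DDC, the decarboxylase that makes dopamine and serotonin, rose by 0.73 (adjusted p = 1.21e-07). Both are outside the naming rule and were chosen after their values were seen. DDC was at 22.8 ± 0.267 CPM in NT, 14.1 ± 0.396 in EV and 23.3 ± 0.434 in OE, so its OE level was that of the other control. PEG10, a retrotransposon-derived gene of neuroendocrine prostate cancer, moved against ENO2. It fell in OE versus EV (log2 fold change -2.26, edgeR adjusted p = 7.74e-11), from 9.66 ± 0.972 to 2.01 ± 0.250 CPM, and rose in KD versus NT (1.05, adjusted p = 7.22e-08). MAP2, a dendritic microtubule protein, rose in KD versus NT (1.74, edgeR adjusted p = 3.34e-10) and differed by -0.17 in OE versus EV (adjusted p = 0.309). It was also higher in EV than in NT (1.14, edgeR adjusted p = 1e-05), so NT was the lowest of the lines.

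Genes near REST sites that are kept silent outside neurons were mostly not called in either arm, which also held for all genes. Of 31 listed, 14 were tested, and 2 rose and 2 fell in OE versus EV, against 11.6% and 10.3% of all genes. In KD versus NT 0 rose and 4 fell, against 16.4% and 12.8% of all genes. The median log2 fold changes of the 14 were -0.11 and -0.50, against -0.02 over all genes in both arms. The strongest of them, SYT4, a synaptotagmin, was at 1272 and 1265 CPM in NT, 898, 840 and 931 in KD, 388 and 408 in EV and 128, 110.3 and 139.1 in OE. It was thus highest in the line with the most REST and lowest in the line with the least. The 2 list genes that rose in OE versus EV, MAPK8IP2 and VGF, ran the other way. By group mean, MAPK8IP2 was lowest at 50.8 CPM (NT) and highest at 89.7 (OE). VGF likewise had its lowest mean, 11.2 CPM, with NT and its highest, 24.6, with OE. These 2 fall outside the naming rule and were picked after their values were seen. Whether any of these genes followed REST was not tested. SYT4 fell in OE versus EV (log2 fold change -1.66, edgeR adjusted p = 8.79e-16) and in KD versus NT (-0.51, adjusted p = 1.52e-07), and it was also lower in EV than in NT (-1.67, adjusted p = 8.63e-15). UNC13A, a priming factor of synaptic vesicles, and GAD1, which makes the transmitter GABA, fell in KD versus NT by 1.65 and 1.49 (edgeR adjusted p = 7.73e-08 and 9.14e-07) and differed by 0.13 and 0.05 in OE versus EV (adjusted p = 0.578 and 0.866).

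The listed corepressors and regulators of REST were expressed in every line. All 17 were tested, of which 3 rose and 2 fell in OE versus EV, against 11.6% and 10.3% of all genes. In KD versus NT 6 rose and 2 fell, against 16.4% and 12.8% of all genes. HDAC2, a histone deacetylase of the REST complexes, fell in OE versus EV (log2 fold change -0.96, edgeR adjusted p = 5.11e-13), with 109 and 111 CPM in EV and 56.7, 54.8 and 58.7 in OE. In KD versus NT it differed by 0.12 (adjusted p = 0.0458, not called). KDM1A, the histone demethylase of CoREST, rose in KD versus NT by 0.55 (edgeR adjusted p = 7.81e-10) and differed by 0.04 in OE versus EV (adjusted p = 0.557). CTDSP2, a small phosphatase that works with REST, rose in OE versus EV by 0.35 (edgeR adjusted p = 2.48e-06) and differed by -0.23 in KD versus NT (adjusted p = 0.000372, not called).

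SYP belongs with the genes of the synaptic vesicle cycle, of which 28 of 42 were tested. In OE versus EV 3 rose and 6 fell, against 11.6% and 10.3% of all genes. In KD versus NT 8 rose and 6 fell, against 16.4% and 12.8% of all genes. RAB3B, a small GTPase of vesicle docking, fell in OE versus EV (log2 fold change -0.51, edgeR adjusted p = 2.53e-09) and rose in KD versus NT (0.78, adjusted p = 8.53e-13), while EV was above NT by 0.81 (adjusted p = 1.08e-11). AP3B2, the neuronal subunit of the AP3 adaptor, fell in KD versus NT (-1.34, edgeR adjusted p = 3.71e-07) and differed by 0.50 in OE versus EV (adjusted p = 0.0111, not called).

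Of 8 tested neurexophilins, neurexins, neuroligins and related genes, 0 rose and 1 fell in OE versus EV, against 11.6% and 10.3% of all genes. In KD versus NT 1 rose and 3 fell, against 16.4% and 12.8% of all genes. NRXN3 and NRXN2, which encode neurexins, the proteins that neurexophilins bind, fell in KD versus NT by 1.68 and 2.48 (edgeR adjusted p = 7.42e-07 and 1.04e-09). The EV versus NT log2 fold change was -0.97 for NRXN3 (edgeR adjusted p = 0.00225, not called) and -2.11 for NRXN2 (adjusted p = 3.99e-07). NRXN2 was at 4.47 CPM in NT, 0.797 in KD and 1.03 in EV as group means. NLGN1, a neuroligin, was high in the NT line like NCAM2. It was at 98.3 ± 1.87 CPM there, against 50.9 ± 0.973 in KD, 54.9 ± 5.21 in EV and 46.4 ± 3.72 in OE. It fell in KD versus NT (-0.95, edgeR adjusted p = 3.63e-12) and was lower in EV than in NT (-0.84, adjusted p = 1.63e-09). In OE, where NXPH4 was highest, NRXN2 and NRXN3 were at 0.574 ± 0.169 and 2.10 ± 0.155 CPM.

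Of 8 tested genes of the NCAM family and its polysialylation, 0 rose and 1 fell in OE versus EV, against 11.6% and 10.3% of all genes. In KD versus NT 0 rose and 2 fell, against 16.4% and 12.8% of all genes. NFASC, an adhesion molecule of the axon, fell in OE versus EV (log2 fold change -1.55, edgeR adjusted p = 2.52e-06). FYN, a kinase that signals from neural cell adhesion molecules, fell in KD versus NT (-2.57, edgeR adjusted p = 3.43e-13), and it was also lower in EV than in NT (-1.13, adjusted p = 1.43e-06). ST8SIA4, a polysialyltransferase that modifies NCAM1, was at 1.63 ± 0.0454 CPM in EV and 0.738 ± 0.121 in OE (edgeR adjusted p = 0.00179, not called). Of the 3 other enolases, ENO1 alone was called in OE versus EV, and ENO4 stayed under 1 CPM as a group mean in every line.

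**Figure D5:**
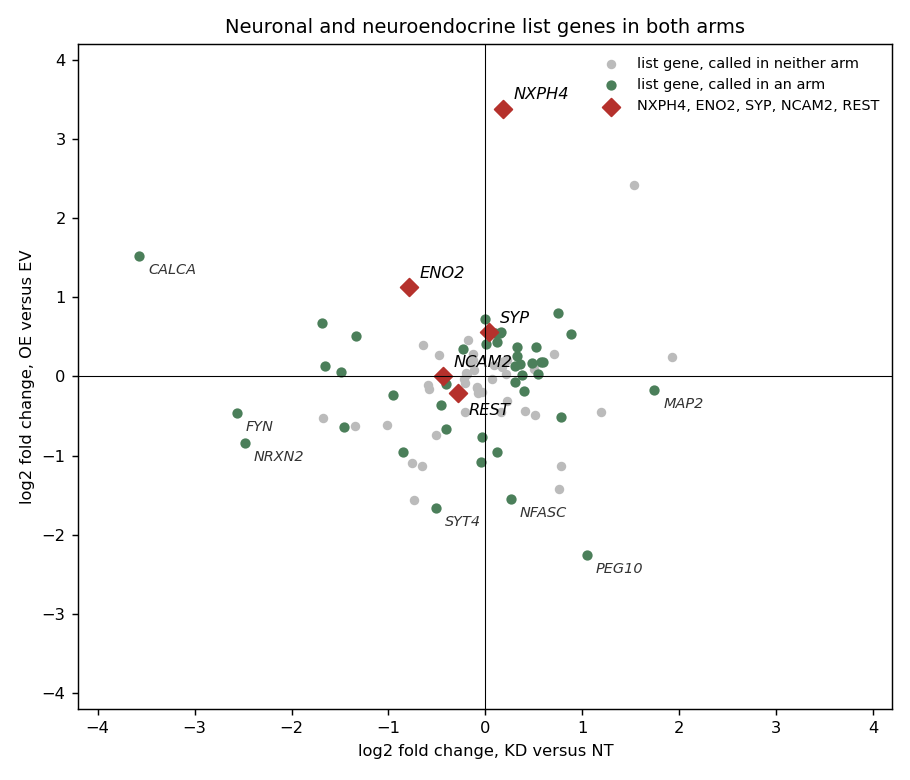
Log2 fold change in KD versus NT (horizontal axis) against OE versus EV (vertical axis) for 85 of the 88 tested list genes (circles, green where called in at least 1 arm) and for NXPH4, ENO2, SYP, NCAM2 and REST (diamonds). The other 3 list genes lie beyond the axes, and CALCA at -3.58 and 1.52 lies in the same quadrant as ENO2.

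The genes whose levels most resembled each of the 5 were sought by Pearson r of log2 CPM over the 10 samples, among 12610 genes with a mean log2 CPM of at least 1. The samples fall into 4 lines, so these values mainly compare patterns of 4 groups, and they are given as a description. NXPH4 was most like FAM107A (r = 0.998), MPV17L (0.994) and GIT2 (0.993). FAM107A, an actin-associated protein of the brain, was at 0.284 to 0.552 CPM in the 7 samples without over-expression and at 1303 to 1366 CPM in OE. MPV17L went from 51.8 ± 1.40 CPM in EV to 76.7 ± 1.25 in OE, so the likeness was in the pattern and not in the size.

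ENO2 was most like LRRN1 (r = 0.989), a neuronal leucine-rich repeat protein, CAMK2N1 (0.986), an inhibitor of the kinase CaMKII, and MT-RNR2 (0.981), a ribosomal RNA of the mitochondrion. CAMK2N1 was at 120 ± 6.75 CPM in OE, 52.3 ± 0.420 in NT, 32.7 ± 1.40 in EV and 17.0 ± 3.37 in KD, the order of ENO2 with a wider span. SYP was most like TMEM101 (0.980), NARF (0.970) and DBP (0.964), a circadian transcription factor at 16.0 ± 0.679 CPM in EV and 26.5 ± 1.23 in OE. NCAM2 was most like OCIAD1 (0.972), RPL23AP7 (0.963) and GOLGA7 (0.961), and OCIAD1 was at 86.8 ± 0.356 CPM in NT and at 73.7 to 75.1 as group means elsewhere. REST was most like PHF6 (0.985), CREB1 (0.978) and ZNF254 (0.976), all of them genes of nuclear proteins. CREB1, a transcription factor, was at 48.8 ± 0.940 CPM in NT, 42.6 ± 0.708 in EV, 41.8 ± 4.12 in KD and 37.6 ± 1.75 in OE.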

How the data were processed

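The authors trimmed read pairs of a poly(A) library with BBDuk, mapped them with STAR 2.6.0a to the Ensembl human transcriptome (hg38) and deposited whole-number counts per gene symbol, without normalization. The handling of multiply mapped reads was not given in the sources used here. The 10 samples were grouped by their labels, with 0 columns left out.

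Counts were filtered with filterByExpr, scaled with TMM and tested with the edgeR 4.0.16 quasi-likelihood test (R 4.3.3), with 1 mean per line and all 10 samples. Contrasts were taken within each arm (OE against EV, KD against NT), between the controls (EV against NT), between OE and KD, and between the arms (the interaction, a difference of the within-arm contrasts). The calling was tested on simulated data. The members and lists were chosen with earlier results of these data known. TPM, positions and neighbours came from GENCODE v44 on GRCh38 matched by symbol (13992 of 17230 tested genes), and RE1 letters from the GRCh38 sequence. Named genes were the 5, CPT1A, their paralogs, the 3 genes of each list with the smallest p for the difference between arms, nearest or overlapping tested genes, and the 3 most alike. Some genes are not reported here. Alternatives were other scalings, filters, tests (DESeq2 1.42.0, limma 3.58.1), each arm alone, the replicate block, a limit of 0.05, another gene length and each sample left out.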

Additional observations from a re-analysis of the deposited data

How the results depend on the processing

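The limits are those of the design. There was 1 line per condition and 2 samples per control, and SYP had 45 to 88 counts per sample, so that differences of its size within the knockdown arm were not detectable. Of 150 log2 fold changes of the 5 genes under other scalings, filters, tests, fits and the replicate block, 146 stayed within 1 SD of the replicates, and the largest move was 0.136. Scaling by library size only moved every gene by -0.098 in OE versus EV and by -0.134 for the difference between arms. NXPH4 then had 3.29 in OE versus EV and 3.07 for the difference between arms, and NCAM2 had -0.10 and 0.30. Same-numbered samples of different lines did not deviate together (mean r -0.00282 over 13 pairs, -0.0443 to 0.0783), and with the replicate block 4258 genes were called in OE versus EV, in place of 3778, and NXPH4 had 3.40.

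With a limit of 0.05, genes called were 8956 in OE versus EV, 9905 in KD versus NT, 5867 in EV versus NT and 7631 for the difference between arms. List genes called were then 26 higher and 29 lower, 31 and 27, 25 and 14, and 24 and 24 in that order. With no filter 2306 genes were called in EV versus NT, in place of 1406, and when every sample had to hold 10 counts or more, 4 list genes were higher there, in place of 7. Leaving out each sample in turn gave 1740 (without replicate 2 of EV) to 4969 genes in OE versus EV, 3110 (without replicate 1 of NT) to 5339 in KD versus NT, 509 (without replicate 1 of EV) to 2438 (without replicate 2 of KD) in EV versus NT and 1786 (without replicate 1 of NT) to 3696 for the difference between arms. List genes ran from 6 to 15 higher and 6 to 12 lower in OE versus EV, 2 to 10 higher in EV versus NT, and 6 to 13 higher and 7 to 16 lower for the difference between arms. With a control left out, its remaining sample was assumed to vary like the other lines. SYP ran from -0.21 to 0.33 in KD versus NT, -0.069 to 0.47 in EV versus NT and 0.24 to 0.77 for the difference between arms, the ends being set by the 2 NT samples. The cause of these moves was not tested.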
